A study of Mus musculus with 60 samples.

Results

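The transcripts of 9 serotonin receptor genes, Htr1a, Htr1b, Htr1f, Htr2a, Htr2c, Htr3a, Htr4, Htr6 and Htr7, were picked by gene symbol from RNA-Seq tables of mouse forebrain. They are 9 of 14 serotonin receptor entries and of 47597 gene entries in each table. The 60 libraries were labelled as cortex or striatum of c57BL-6N mice aged 3 months, in 10 groups of 6 with 3 males and 3 females each. The groups of the Δ12 line were +/+, Δ12/+ and Δ12/Δ12, where the Δ12 allele, edited in embryonic stem cells, lacks part of exon 12 of the huntingtin gene Htt and carries a new splice donor. The groups of the KO line were +/+ and KO/+, where the KO allele comes from 1 founder line of the same editing and is missing the normal splice donor. Replicates were numbered within each sex, and since nothing in the labels names litters, the p-values below measure the spread between these libraries. Levels are FPKM (fragments per kilobase of transcript, scaled to the mapped fragments of the library), rescaled between libraries by a median of ratios, so levels can be compared between genes per length of transcript.

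Serotonin reaches the forebrain through axons of the raphe nuclei of the brainstem, and the cells that answer it are told apart by the receptors they make. All of these receptors except Htr3a are coupled to G proteins. Htr1a, Htr1b and Htr1f act through Gi and lower cyclic AMP, Htr2a and Htr2c act through Gq and phospholipase C, and Htr4, Htr6 and Htr7 act through Gs and raise cyclic AMP, while Htr3a forms a cation channel found on a subset of cortical interneurons. Htr1b is known as a receptor of axon terminals, also those of striatal projection neurons, and the epithelium of the choroid plexus is known for very high Htr2c.

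The libraries were described by the tissue their own transcripts pointed to, because the tissue labels and the regional markers did not go together. A library was taken as cortex-like where the deposited FPKM of Slc17a7, the vesicular glutamate transporter of cortical excitatory neurons, was above 100, and as striatum-like otherwise. This gave 30 cortex-like libraries, at 121 to 234 FPKM of Slc17a7, and 30 striatum-like libraries, at 4.81 to 64.8 FPKM, and the class went with the labelled tissue in 30 of 60. All libraries of the +/+ and Δ12/+ groups of the Δ12 line were cortex-like under either tissue label, as were those labelled male Δ12/Δ12, whereas those labelled female Δ12/Δ12 and all 24 of the KO line were striatum-like. All 8 markers of striatal projection neurons were higher in every striatum-like library than in any cortex-like one, with Drd2, a dopamine receptor, at 34.8 to 71.3 against 0 to 15.9 rescaled FPKM. Of the 6 cortical markers, 2 were higher in every cortex-like library, and 1 of these was Slc17a7, which sets the classes. Of all 16076 entries with a mean of at least 0.5 rescaled FPKM, 19.3% were separated as higher in striatum-like libraries. Another 16.9% were separated as higher in cortex-like ones. Transcripts of the sex chromosomes, read as the higher of Xist and Ddx3y, matched the sex label in 30 of 60. Htt, the edited gene, did not set KO/+ fully apart from +/+ in the KO line. Under each tissue label, 3 of 6 libraries labelled KO/+ had an Htt level no lower than the lowest one labelled +/+. The genotype comparisons below follow the labels as given, which Htt thus did not bear out for all libraries. Htt was at 4.81 to 11.2 rescaled FPKM in cortex-like and at 12.7 to 20.7 in striatum-like libraries. For 1 library, labelled striatum KO/+ female 3, the title names the other line. Class and line largely coincide, so what belongs to the tissue and what to the line cannot be told apart, and since the classes were set from measured expression they are described here without a test.

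The bases before the transcription start of the receptors with the highest or the most separated levels are shown here, since these are the stretches next to which their transcripts begin. Upstream windows of 250 bases were found for 7 of the 9 receptors among the RefSeq promoter sequences of build GRCm38.p6, and 3 of them held no annotated exon of the receptor. They lie on the reverse strand at chr9:81633833-81634082 for Htr1b, on the reverse strand at chr4:139075571-139075820 for Htr6, and on the forward strand at chrX:146962263-146962512 for Htr2c, written 5′ to 3′ on the strand of the gene. Capitals mark matches to CCAAT or GGGCGG on either strand.
Htr1b: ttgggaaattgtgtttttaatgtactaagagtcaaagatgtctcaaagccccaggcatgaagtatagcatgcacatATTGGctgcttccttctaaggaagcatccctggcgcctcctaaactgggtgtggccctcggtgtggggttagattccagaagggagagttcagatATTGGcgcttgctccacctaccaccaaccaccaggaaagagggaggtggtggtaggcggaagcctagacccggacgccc
Htr6: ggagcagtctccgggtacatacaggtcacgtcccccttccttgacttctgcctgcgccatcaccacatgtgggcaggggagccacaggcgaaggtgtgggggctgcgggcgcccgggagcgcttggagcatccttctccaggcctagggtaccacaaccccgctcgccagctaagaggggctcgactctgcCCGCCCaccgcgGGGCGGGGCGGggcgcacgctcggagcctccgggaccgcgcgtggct
Htr2c: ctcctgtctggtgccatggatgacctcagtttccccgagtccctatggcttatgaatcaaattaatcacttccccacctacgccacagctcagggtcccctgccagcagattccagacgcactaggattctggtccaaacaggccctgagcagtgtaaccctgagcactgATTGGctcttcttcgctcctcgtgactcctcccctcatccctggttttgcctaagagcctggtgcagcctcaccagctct
The letters CCAAT were matched at 174 and 79 bases before the start of Htr1b and at 80 bases before that of Htr2c. Of all 32851 windows of this length, 33.8% held them. The GC box GGGCGG was matched 3 times before Htr6, at 59, 47 and 42 bases, of which the last 2 overlap by 1 base, and 32.7% of all windows held at least 1. The GC content was 52.4% for Htr1b, 55.6% for Htr2c and 70.8% for Htr6, against a median of 52.4% over all windows. Neither TATAAA (12.4% of all windows) nor the E box CAGCTG (13.0%) was matched in the 7 windows, and TGACG (17.8%) was matched in that of Htr7 alone. These are matches of letters and say nothing of binding.

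The main contrast between the classes was in Htr1b, Htr6 and Htr3a, while Htr2a, Htr2c and Htr7 lay at like levels in both. Of the 9 receptors, 2 had class ranges that did not overlap, Htr1b and Htr6, and both were higher in the striatum-like libraries. Of all 16076 entries with a mean of at least 0.5 rescaled FPKM, 36.2% had ranges that did not overlap, 19.3% higher in striatum-like and 16.9% higher in cortex-like libraries, so the share among the receptors was not above that of other genes. The median log2 ratio of class medians, striatum-like over cortex-like and with 0.5 added to each, was -0.13 over the receptors and 0.03 over all entries.

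**Figure D1:**
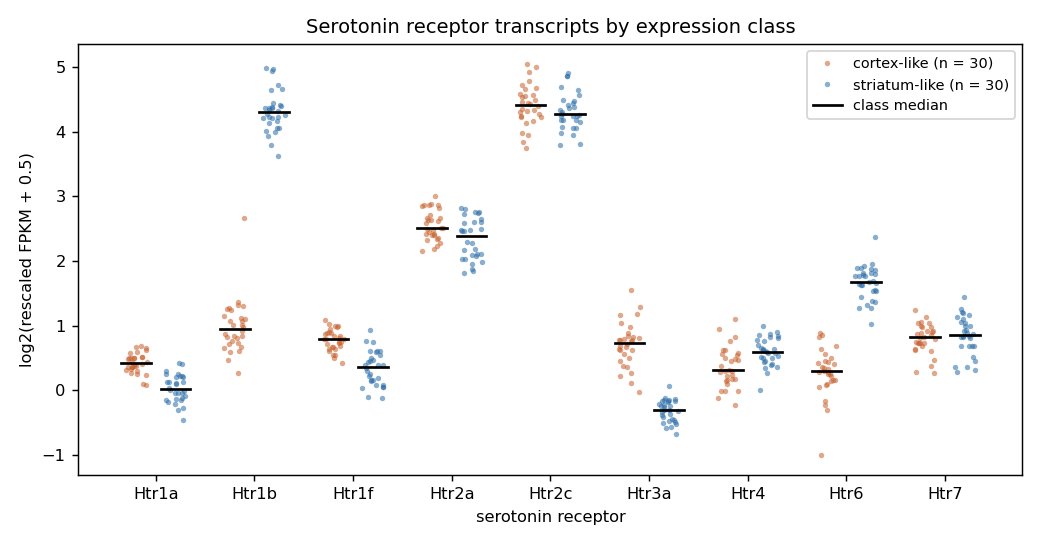
Log2 of rescaled FPKM plus 0.5 (vertical axis) of the 9 receptors (horizontal axis), 1 point per library, with 30 cortex-like libraries in orange and 30 striatum-like ones in blue and the class median as a black bar. The classes of Htr1b and Htr6 do not overlap, and Htr3a is the receptor with the largest fall from cortex-like to striatum-like libraries, with medians of 1.17 and 0.313 rescaled FPKM.

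Among the receptors of the Gi class, Htr1b had the largest ratio between the classes of all 9 receptors. Its lowest, median and highest levels were 0.712, 1.43 and 5.86 rescaled FPKM in the cortex-like libraries and 11.9, 19.2 and 31.0 in the striatum-like ones, a ratio of medians of 13.4. The highest cortex-like value, 5.86, stood alone in the library labelled striatum Δ12/+ male 3, which also had the highest cortex-like Htr6, at 1.36, and Drd2, at 15.9. The other 29 were at or below 2.07. Htr1b (chromosome 9, 81628291 to 81633828, reverse strand) has its coding sequence in a single exon and overlaps the antisense gene D430036J16Rik, whose median was 0.484 rescaled FPKM in cortex-like and 4.48 in striatum-like libraries. The kit marks strand, but whether strand was used when fragments were assigned is not given in the sources used here, so part of either value could belong to the other gene.

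Htr1a and Htr1f were low in both classes and lay lower in the striatum-like libraries. Htr1a, known as the autoreceptor of raphe neurons and a receptor of cortical neurons, ranged from 0.565 over 0.848 to 1.10 rescaled FPKM (lowest, median, highest) in cortex-like libraries and from 0.233 over 0.518 to 0.849 in striatum-like ones. Htr1f ranged from 0.846 over 1.24 to 1.62 and from 0.420 over 0.788 to 1.42. Their class ranges overlapped, with 15 and 24 of the 30 cortex-like libraries inside the striatum-like range.

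The Gq receptors held the largest part of the receptor transcripts. Htr2c ranged from 12.9 over 20.9 to 32.7 rescaled FPKM in the cortex-like libraries and from 13.4 over 18.7 to 29.4 in the striatum-like ones. Htr2a, a receptor known from pyramidal neurons of the cortex, ranged from 3.94 over 5.18 to 7.5 and from 3.04 over 4.71 to 6.55. For both, at least 24 of 30 cortex-like libraries lay within the striatum-like range. Htr2c made up a median of 60.6% of the summed FPKM of the 9 receptors in cortex-like and 40.0% in striatum-like libraries, and the share of Htr1b went from 4.26% to 37.2%.

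Htr3a, the subunit of the serotonin-gated channel, was lower in the striatum-like libraries. It ranged from 0.483 over 1.17 to 2.45 rescaled FPKM in the cortex-like libraries and from 0.126 over 0.313 to 0.552 in the striatum-like ones, and 1 cortex-like library lay within the striatum-like range. The neuropeptide Vip, made by cortical interneurons of the same developmental origin, had medians of 31.9 and 0.546 rescaled FPKM. The whole list of 5 markers of these caudal-ganglionic interneurons did not follow it, with 1 marker higher in each class without overlap and 3 overlapping. Of all entries, 19.3% were higher in striatum-like and 16.9% in cortex-like libraries without overlap. Htr3a has an antisense gene over it as well, Gm32335, which was not measured in these tables.

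The Gs receptors differed among themselves. Htr6, known from striatal projection neurons, ranged from 0 over 0.726 to 1.36 rescaled FPKM in the cortex-like libraries and from 1.54 over 2.70 to 4.65 in the striatum-like ones, a ratio of medians of 3.72. The 0 was listed in the library labelled cortex +/+ female 1 of the Δ12 line. Htr4 ranged from 0.352 over 0.739 to 1.65 and from 0.508 over 1.02 to 1.48. Htr7 had nearly equal medians, at 1.27 (0.711 to 1.88) and 1.31 (0.718 to 2.23).

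In the order of medians, the cortex-like libraries had Htr2c first and Htr2a second, followed by Htr1b, Htr7, Htr1f, Htr3a, Htr1a, Htr4 and Htr6. Htr2c was above Htr2a in all 30 of these libraries with no overlap of the ranges, and Htr2a was above Htr1b in 29. The 7 lower receptors had medians between 0.726 and 1.43 rescaled FPKM, and the range of each overlapped that of its neighbour. In the striatum-like libraries the order was Htr1b, Htr2c, Htr2a, Htr6, Htr7, Htr4, Htr1f, Htr1a and Htr3a. Htr1b and Htr2c were not told apart there, since Htr1b exceeded Htr2c in 11 of 30 libraries although its median was higher. Htr2c was above Htr2a in all 30 with no overlap, and all later neighbours overlapped in range.

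The precision of these levels follows from the intervals the authors deposited with each value, as the tables hold no counts. The median half-width of the interval was 8.12% of the value for Htr1b in striatum-like libraries and 11.3% for Htr2c in cortex-like ones. It was 49.2% for Htr6 in cortex-like and 59.1% for Htr3a in striatum-like libraries, so single values of these are loose. These intervals cover the assignment and counting of fragments and not the spread between mice.

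Under the labels, Htr1b and Htr6 followed the expression class and not the labelled tissue. In the libraries labelled cortex Δ12/Δ12, Htr1b was at 1.39, 1.33 and 1.52 rescaled FPKM in the 3 labelled male and at 11.9, 18.9 and 20.2 in the 3 labelled female. In those labelled striatum Δ12/Δ12, it was at 1.90, 1.19 and 1.86 in the males and at 18.0, 17.1 and 20.1 in the females. Each of these 2 groups thus holds both classes.

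**Figure D2:**
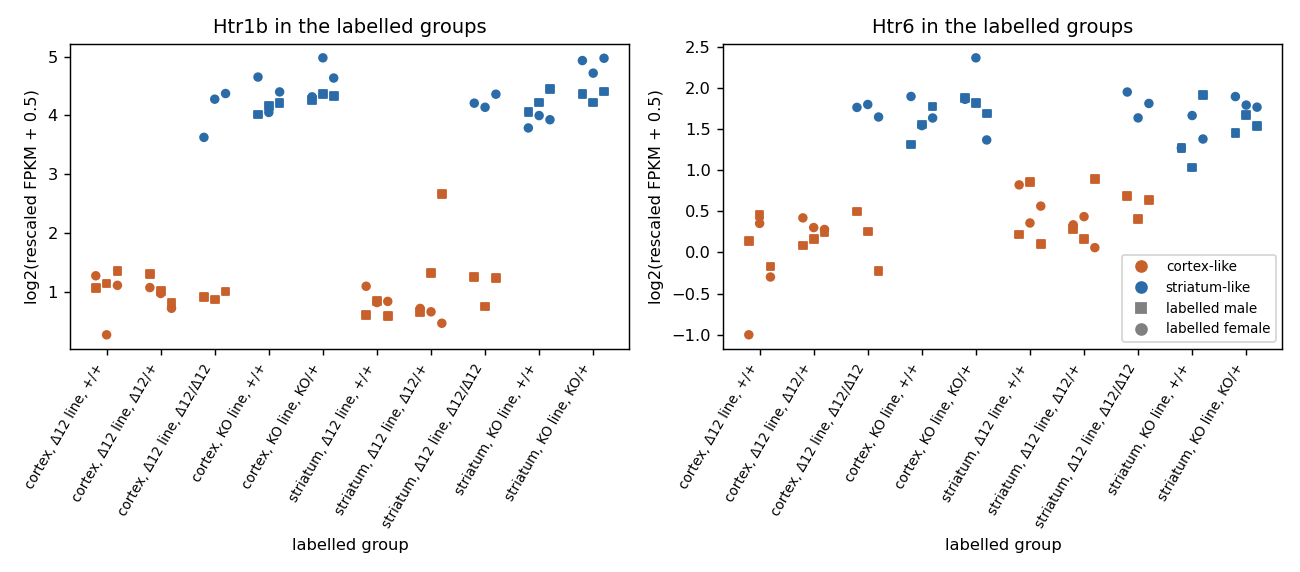
Log2 of rescaled FPKM plus 0.5 (vertical axis) of Htr1b (left) and Htr6 (right) in the 10 labelled groups of 6 libraries (horizontal axis), with cortex-like libraries in orange, striatum-like ones in blue, labelled males as squares and labelled females as circles. In both groups labelled Δ12/Δ12 the 3 labelled females sit with the KO line and the 3 labelled males with the rest of the Δ12 line.

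The comparison of Δ12/+ with +/+ asks what 1 copy of the shortened Htt changes, and no receptor passed the test in it. With limma on log2(rescaled FPKM + 0.5), the labelled sex in the model and p-values adjusted by Benjamini-Hochberg over all entries, 0 of 9 receptors were called in the libraries labelled cortex, where 0.0662% of all entries were called (0.0132% higher, 0.053% lower), and 0 of 9 in those labelled striatum, where 0.00663% were. None of the 9 had an unadjusted limma p under 0.05 under either tissue label. Of all entries, 1263 of 15095 had one in labelled cortex and 486 of 15077 in labelled striatum. The log2 fold changes lay between -0.27 for Htr3a and 0.34 for Htr6 in labelled cortex. In labelled striatum they lay between -0.12 for Htr6 and 0.28 for Htr1b, with an SE of 0.32 for the latter, in whose group the library with 5.86 rescaled FPKM falls. All 24 libraries of these 2 comparisons were cortex-like.

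The comparison of Δ12/Δ12 with +/+ mixes the classes, and its +/+ libraries are also those of the Δ12/+ comparison. In the libraries labelled cortex, 0 of 9 receptors were called by limma, against 0.924% of all entries (0.274% higher, 0.65% lower). An unadjusted limma p under 0.05 was found for 5 of 9 receptors and for 5978 of all 15696 entries. The entries called in all went from 145 to 12 without Δ12/Δ12 female 1 and to 3844 without +/+ male 2, where Htr6 was called as well. The largest log2 fold changes there were 1.47 ± 0.55 (SE) for Htr1b and 1.04 ± 0.38 for Htr6, with limma adjusted p of 0.088 and 0.083. In the libraries labelled striatum, 4 of 9 receptors were called, against 28.3% of all entries (14.7% higher, 13.6% lower), a split of higher and lower calls of 2278 and 2103 that was 1291 and 3045 on the FPKM as deposited. These were Htr1b (log2 fold change 1.86 ± 0.45, limma adjusted p 0.032), Htr6 (0.70 ± 0.21, 0.040), Htr4 (0.49 ± 0.14, 0.037) and Htr3a (-0.55 ± 0.18, 0.048). With the expression class in the limma model 0 of them were called, as were 21 of all entries. Without +/+ female 1, 2 or 3 or Δ12/Δ12 female 1, 2 or 3, limma called 0 receptors and 5 to 33 of all entries.

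Htr4 was called although both classes within its Δ12/Δ12 group lay at like levels. Its 3 labelled male libraries of the striatum Δ12/Δ12 group, which were cortex-like, were at 1.20, 1.04 and 1.43 rescaled FPKM and its 3 striatum-like females at 1.3, 1.03 and 1.06. The 6 libraries labelled +/+ lay between 0.352 and 0.967, below all 6. In the libraries labelled cortex the log2 fold change of Htr4 was 0.11 ± 0.23 (SE, limma adjusted p 0.75).

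The comparison of KO/+ with +/+ asks what the loss of 1 functional copy changes, as far as the genotype labels hold, and all of its libraries were striatum-like. In those labelled striatum, Htr2a was higher and Htr7 lower in KO/+. Among the 6 libraries labelled +/+, Htr2a was at 3.10, 4.02 and 3.81 rescaled FPKM in the males and at 3.74, 4.42 and 3.04 in the females. Among the 6 labelled KO/+, it was at 4.36, 5.11 and 5.77 in the males and at 6.29, 5.16 and 6.55 in the females. The lowest KO/+ value thus lay just below the highest +/+ value, and all the others lay above it. The log2 fold change was 0.53 ± 0.11 (SE, n = 6 against 6, limma adjusted p 0.016).

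Htr7 moved the other way and its groups did not overlap. The libraries labelled +/+ were at 2.23, 1.39 and 1.33 rescaled FPKM in the males and at 1.80, 1.36 and 1.56 in the females. Those labelled KO/+ were at 0.780, 1.25 and 0.718 in the males and at 0.742, 0.792 and 1.12 in the females. The log2 fold change was -0.59 ± 0.13 (SE, limma adjusted p 0.021). The 2 receptors called, of 8 tested, compare with 6.91% of all entries called (3.51% higher, 3.4% lower). Over all entries the higher and lower calls were 555 and 538, and on the FPKM as deposited 23 and 283. Htr3a was not tested, as its mean of these libraries was below 0.5 rescaled FPKM.

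**Figure D3:**
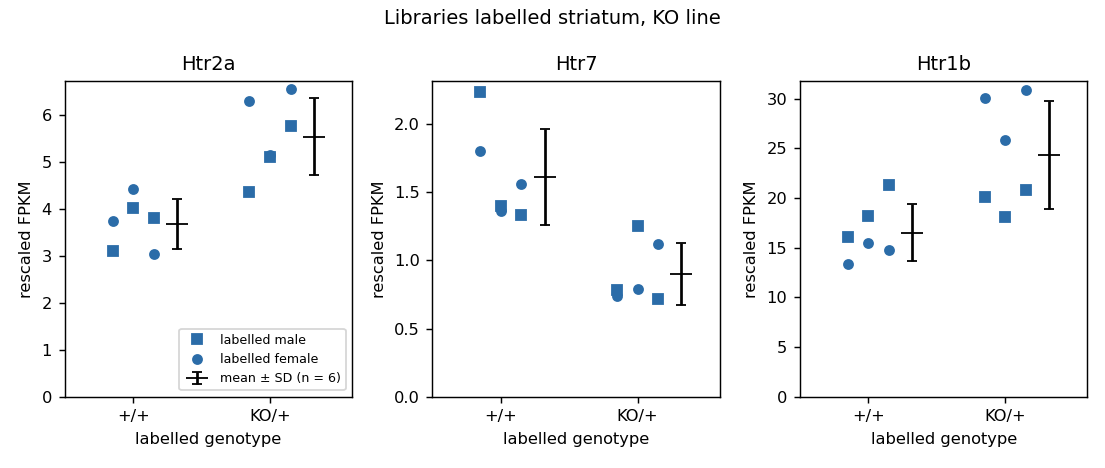
Rescaled FPKM (vertical axis, from 0) of Htr2a, Htr7 and Htr1b in the 6 libraries labelled +/+ and the 6 labelled KO/+ (horizontal axis) of the striatum groups of the KO line, males as squares and females as circles, with the mean ± SD beside them. Htr7 does not overlap between the groups, Htr2a overlaps in 1 library of each, and Htr1b, at 13.3 to 21.3 in +/+ and 18.1 to 30.9 in KO/+, did not pass the adjustment.

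Both calls moved with some settings. On the FPKM as deposited, Htr2a had an adjusted p of 0.103 in limma, with a log2 fold change of 0.44. Htr7 passed the threshold of 0.05 narrowly and had limma adjusted p of 0.053, 0.051 and 0.053 without +/+ female 1, KO/+ female 1 or KO/+ female 2. Htr1b had a log2 fold change of 0.53 ± 0.15 and a limma adjusted p of 0.063, and was called in 3 of 20 alternatives. In the libraries labelled female it was at 13.3, 15.5 and 14.7 rescaled FPKM in +/+ and at 30.0, 25.8 and 30.9 in KO/+, without overlap. In those labelled male it was at 16.1, 18.2 and 21.3 in +/+ and at 20.1, 18.1 and 20.8 in KO/+, which overlap. The difference of the effects, male minus female, was -0.88 on the log2 scale. It did not pass the adjustment over all entries, which 1 of 15808 passed (interaction in limma, p 0.00029, adjusted p 0.285). Sex labels matched the sex-linked transcripts in 30 of 60 libraries, so this is a difference between labels. Both Htr2a and Htr7 were called without KO/+ female 3, the library whose title names the other line (limma adjusted p 0.039 and 0.028). Without +/+ male 3, which had the highest Htr1b of its group, 4 receptors were called, the others being Htr1b and Htr6. With 1 library left out at a time, 560 to 1243 of all entries were called.

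Markers of neighbouring regions moved with the labelled genotype in the same 12 libraries, where 3.51% of all entries were called higher and 3.4% lower. Not every list moved, with 0 of 12 choroid plexus markers called and, of 5 caudal-ganglionic interneuron markers, 1 higher and 2 lower. All 6 thalamus markers were called lower in KO/+, and their summed level was 15.6 to 27.2 rescaled FPKM in the 6 libraries labelled KO/+ and 63.2 to 102.7 in those labelled +/+. Of 8 striatal projection neuron markers, 6 were called higher and 0 lower, with sums of 1620 to 2102 in KO/+ and 1144 to 1558 in +/+. Of 5 markers of septum and hypothalamus, 4 were called lower, with sums of 4.42 to 6.11 in KO/+ and 17.0 to 149 in +/+. The part of these in the differences of Htr2a and Htr7 was not tested, and in such bulk libraries fewer cells of a type and less RNA per cell cannot be told apart.

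In the libraries labelled cortex of the KO line, which were striatum-like too, 0 of 8 receptors were called by limma, against 0.0885% of all entries (0.00632% higher, 0.0822% lower). An unadjusted limma p under 0.05 was found for 3 of the 8 and for 2202 of all 15820 entries. On the FPKM as deposited, 4 entries were called higher and 106 lower in place of 1 and 13. Htr7 had a log2 fold change of -0.24 ± 0.10 (SE), Htr2a of 0.29 ± 0.12 and Htr2c of 0.35 ± 0.14, with limma adjusted p of 0.34, 0.31 and 0.31. The difference of the KO/+ effects between the labelled tissues, striatum minus cortex, was -0.35 for Htr7 and 0.24 for Htr2a on the log2 scale, with limma adjusted p of 0.44 and 0.58. This fit takes cortex and striatum libraries as independent, and 0 of its 15917 entries passed, so a difference between the tissue labels was not shown.

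The +/+ libraries of the KO line and those of the Δ12 line differ in class under both tissue labels, and they differed most in Htr1b. In labelled cortex 5 of 9 receptors were called by limma, against 68% of all entries (36.5% higher, 31.6% lower), and in labelled striatum 5 of 9, against 79.4% (41.9% higher, 37.4% lower). On the FPKM as deposited, the higher and lower calls over all entries went from 5760 and 4991 to 4418 and 5702 in labelled cortex and from 6588 and 5881 to 5000 and 7053 in labelled striatum. Under both labels Htr1b was higher in the KO line, by 3.20 ± 0.19 and 3.27 ± 0.12 on the log2 scale (± SE), and Htr6 by 1.70 ± 0.23 and 0.93 ± 0.18. Htr3a was lower, at -1.24 ± 0.21 and -1.01 ± 0.10, and so was Htr1f, at -0.57 ± 0.11 and -0.51 ± 0.12. Htr1a was called lower in labelled cortex and Htr2a in labelled striatum. These +/+ libraries also serve as controls in the comparisons above.

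**Figure D4:**
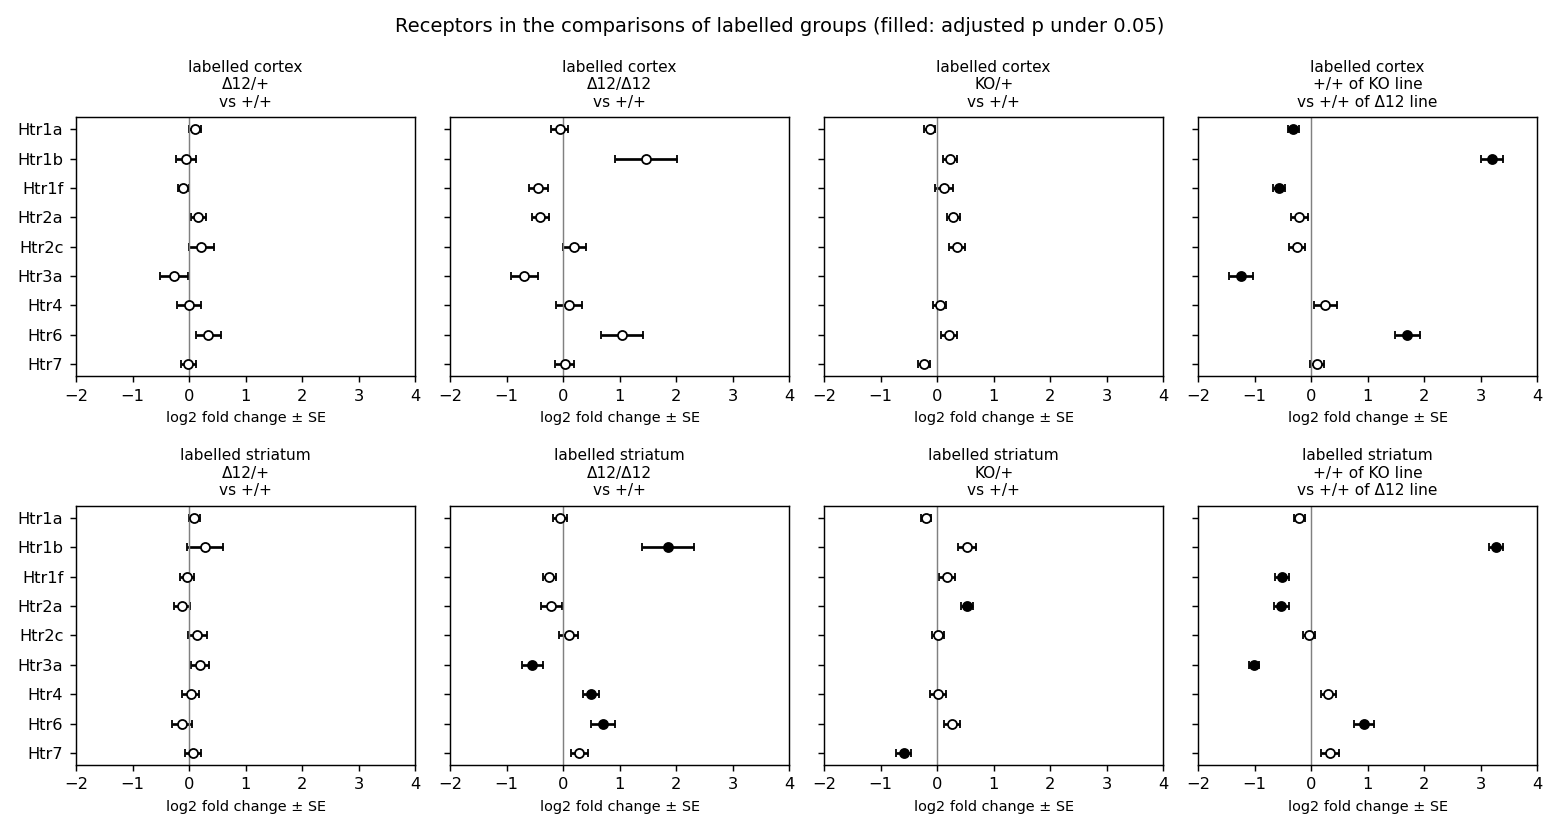
Log2 fold changes of the receptors (horizontal axis, points with bars of 1 SE) in the 8 comparisons of labelled groups, with receptors on the vertical axis and filled points where the limma adjusted p was under 0.05. Htr3a is missing in both KO/+ comparisons, where it was not tested, and the largest values are those of Htr1b where the groups compared differ in class.

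Within the striatum-like libraries, Htr2c rose with the markers of the choroid plexus. The summed level of 12 such markers, with the thyroxine carrier Ttr the largest, ranged from 36.4 over 1002 to 2158 rescaled FPKM (lowest, median, highest) in striatum-like libraries and from 4.05 over 11.3 to 391 in cortex-like ones. Cortex and striatum libraries of the same line, genotype, sex and number may come from 1 mouse, in which case the 30 libraries of a class stand for 15 mice and p-values over 30 are too small. Over the 30 striatum-like libraries, on the log2 scale, Pearson's r between Htr2c and this sum was 0.72 (permutation p 2e-05) and Spearman's rho 0.88 (permutation p 1e-05, the smallest 100000 permutations can give), with adjusted p of 4e-05 and 2e-05 over the 2 classes. Without the 2 libraries farthest from the median of the sum, r was 0.84. With the mean of each labelled group taken away from both measures, r was 0.66 (permutation p 0.00012). With the same-numbered cortex and striatum libraries averaged, a setting added after the values were seen, r over 15 means was 0.63 (permutation p 0.010, adjusted 0.021) and rho 0.74 (permutation p 0.0022, adjusted 0.0043). Such means keep the differences between line, genotype and sex labels. Same-numbered libraries of this class deviated together, by a correlation over 0.1, in 4 of 15 pairs, so whether they share a mouse was not settled. Over the 30 cortex-like libraries r was -0.11 (permutation p 0.58) and rho -0.07 (permutation p 0.71), and r without the 2 farthest was -0.23.

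Other receptors moved with other regional markers inside the striatum-like class, in relations chosen after the values were seen, with p adjusted over 6. Correlations of every receptor with every cell type marker list were computed in both classes, and the adjustment over 6 does not cover that choice. Htr7 rose with the summed thalamus markers, with r 0.68 and rho 0.69 over 30 libraries (permutation p 8e-05 and 9e-05, adjusted 0.00016 and 0.00018) and r 0.68 without the 2 farthest libraries. Htr2a rose with the striatal projection neuron markers, with r 0.72 and rho 0.72 (permutation p 2e-05 for each, adjusted 6e-05 and 0.00012), and r 0.67 without the 2 farthest. Htr1b did so too, with r 0.76 and rho 0.68 (permutation p 1e-05 and 7e-05, adjusted 6e-05 and 0.00018), and r 0.72 without the 2 farthest. With the group means taken away, r fell to 0.44 for Htr7, 0.45 for Htr2a and 0.60 for Htr1b (permutation p 0.014, 0.011 and 0.00053, adjusted 0.021, 0.021 and 0.0016). Over the 15 means of same-numbered libraries, r was 0.87 for Htr7, 0.74 for Htr2a and 0.91 for Htr1b (permutation p 0.00011, 0.00065 and 1e-05, adjusted 0.00033, 0.0013 and 6e-05), with rho of 0.86, 0.76 and 0.88. These means keep the differences between line, genotype and sex labels, so they do not show a relation within the labelled groups.

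In the cortex-like class the relations of Htr7 and Htr2a did not pass the test, and that of Htr1b depended on the setting. Pearson's r was -0.004 for Htr7 and the thalamus markers and -0.03 for Htr2a and the striatal markers (permutation p 0.98 and 0.90). For Htr1b and the striatal markers r was 0.68 (permutation p 0.0024, adjusted 0.0035) and rho 0.31 (permutation p 0.10). This r rested on the libraries at the edge, since it was 0.18 without the 2 farthest, those labelled striatum Δ12/+ male 3 and male 2. With the group means taken away, r for Htr1b was 0.75 (permutation p 0.00013, adjusted 0.00078) and 0.40 without the 2 farthest. Its rho was then 0.49 (permutation p 0.0062, adjusted 0.016). Over the 15 means of same-numbered libraries, r was -0.30 for Htr7, 0.43 for Htr2a and 0.60 for Htr1b (permutation p 0.29, 0.11 and 0.020, adjusted 0.29, 0.13 and 0.030), and that of Htr1b was 0.05 without the 2 farthest.

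**Figure D5:**
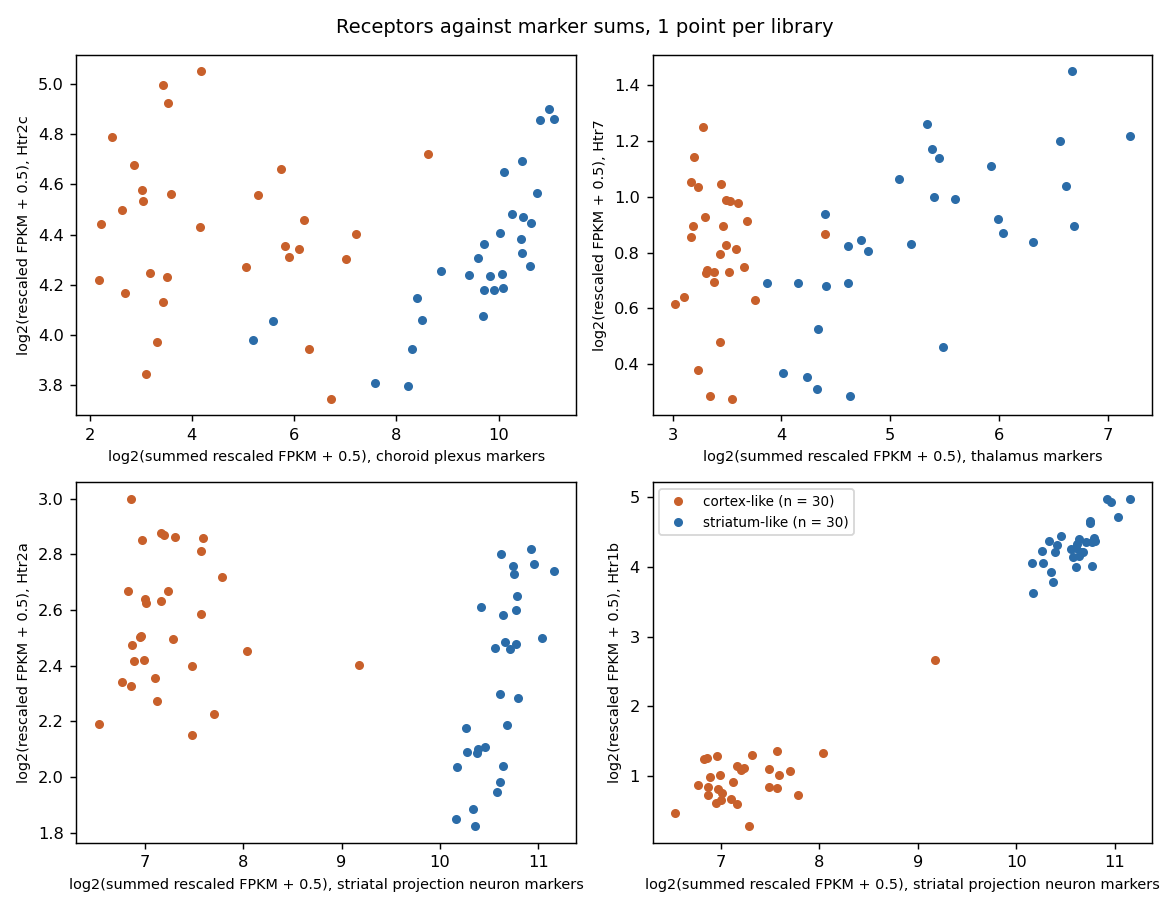
Log2 of rescaled FPKM plus 0.5 of Htr2c, Htr7, Htr2a and Htr1b (vertical axes) against log2 of the summed rescaled FPKM plus 0.5 of a list of markers (horizontal axes), 1 point per library, cortex-like in orange and striatum-like in blue. Within the striatum-like class the points rise in all 4 panels, with r between 0.68 and 0.76, and in the panel of Htr1b a single cortex-like library lies between the classes.

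The genes whose levels went most closely with each receptor were sought among 13014 entries over the 30 striatum-like libraries or 12747 over the 30 cortex-like ones, in the class where its median was higher. For Htr1b these were Ippk, Itpr1 and Rundc1, with r of 0.88, 0.86 and 0.85. For Htr7 they were Resp18, Col25a1 and Disp2, each with r of 0.83. For Htr6 they were U2af2, Coro2b and Fbxo42 (r 0.75, 0.72 and 0.71) and for Htr4 Vstm2a, Arhgap6 and Alg9 (r 0.69, 0.67 and 0.65). In the cortex-like libraries, Fam102a, Bri3bp and Mapk8ip3 went with Htr2c (r 0.77, 0.72 and 0.71) and Ddb1, Fem1b and H2-D1 with Htr3a (r 0.73, 0.71 and 0.66). Those of Htr1a were Csrnp2, Calhm2 and Kcnj14, those of Htr1f Tuba1b, Napg and Itga4, and those of Htr2a Ipo7, Zfp160 and Rwdd2b, with r between 0.60 and 0.65. These are the highest of many correlations, and the libraries share their group and region and, where numbers mark mice, the mouse.

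Of the 5 other serotonin receptors, 3 had a mean of at least 0.5 rescaled FPKM. The classes did not overlap for 1 of the 3, Htr5b, against 36.2% of all entries. Htr1d had class medians of 1.28 (cortex-like) and 4.87 (striatum-like) rescaled FPKM with overlapping ranges, and Htr5a of 1.6 and 1.04. Htr5b was higher in every cortex-like library, at 0.458 to 1.90 against 0.0385 to 0.394. Htr2b and Htr3b had medians of 0 in both classes.

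Transcripts of serotonin neurons themselves were nearly absent. Tph2, the enzyme that makes serotonin in neurons, had medians of 0.469 (cortex-like) and 0.137 (striatum-like) rescaled FPKM, the serotonin transporter Slc6a4 of 0.00804 and 0, and the raphe factor Fev was at 0 in all 60 libraries. Of 7 genes for synthesis, transport and breakdown, 3 had a mean of at least 0.5. The monoamine oxidase Maob was higher in every striatum-like library, as were 19.3% of all entries, at medians of 2.42 and 5.46. Maoa had medians of 6.32 and 3.61, and the decarboxylase Ddc of 2.25 and 3.37, both with overlap. In the labelled comparisons of genotype, Maoa alone was called, in labelled striatum Δ12/Δ12 (log2 fold change -0.60 ± 0.11 SE, limma adjusted p 0.029). That is 1 of 3 tested in a comparison that called 28.3% of all entries and whose Δ12/Δ12 group holds both classes.

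The partners of the receptors inside the cell held several of the wide class ratios. Of 18 listed, 17 were used, and 6 were higher and 3 lower in every striatum-like library than in any cortex-like one, against 19.3% and 16.9% of all entries. Their median log2 ratio was 0.60, and that of all entries 0.03. The remaining gene, Adarb1, an enzyme that edits the Htr2c transcript, was left out because its status was not OK in at least 1 library. Adcy5, the main adenylyl cyclase of striatal projection neurons, had medians of 5.48 and 171 rescaled FPKM, and Gnal, their stimulatory G protein, of 10.5 and 97.1. Gnao1, a G protein of the Gi family, had medians of 29.2 and 188, and Kcnj6, a potassium channel opened by Gi receptors, of 51.8 and 3.48. In labelled striatum Δ12/Δ12, where the classes are mixed, 6 of 17 were called higher and 2 lower, against 14.7% and 13.6% of all entries. In labelled striatum KO/+, 4 of 17 were called higher and 2 lower, against 3.51% and 3.4% of all entries, with Adcy5 at 0.41 ± 0.09 and Gnal at 0.35 ± 0.06 on the log2 scale (± SE, limma adjusted p 0.022 and 0.011). The 8 striatal projection neuron markers had a median log2 fold change of 0.46 in these libraries, with 6 called higher and 0 lower. Their part in the differences of Adcy5 and Gnal was not tested.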

How the data were processed

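RNA was measured in 60 libraries of total RNA depleted of ribosomal RNA, made with a strand-specific kit. The authors deposited tables of FPKM per gene entry with the bounds of a confidence interval, in the layout of Cufflinks and 1 for each library, on build GRCm38.p4. The submitters' processing notes name bcl2fastq 2.20, Trimmomatic 0.30, TopHat2 2.0.14, SAMtools 1.3 and HTSeq 0.6.1p1, and the annotation is not given in the sources used here. The tables hold no counts, so the total depth is not stated and the intervals stand for the precision.

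From these, 23 of 47597 entries were left out because their status was not OK in some library. Libraries were rescaled by the median ratio to the geometric mean over the 13235 entries above 0 in all, with factors from 0.761 to 1.38. Labelled groups were compared with limma 3.58.1 in R 4.3.3 on log2(rescaled FPKM + 0.5), among entries with a mean of at least 0.5 in the libraries of a fit and with labelled sex as a covariate, and a Benjamini-Hochberg adjusted p under 0.05 was a call. Fold changes on this scale understate those of low genes. The test was tried on simulated data. Relations used 100000 two-sided permutations in scipy 1.17.1. Annotation came from GENCODE M21.

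The members and lists were chosen with earlier results of these data known. Named are the 9 receptors, up to 4 genes of the largest log2 class ratio per list with Tph2, Slc6a4 and Adarb1, the 3 genes of highest r per receptor, and the genes of the label checks. D430036J16Rik, Vip and Gm32335 were named after their values or positions were seen. Groups follow the labels, and the library with a title that names the other line was placed by its genotype label. No 2 libraries held identical values. The alternatives were another scaling, pseudocount, filter, covariate, threshold or list, a replicate block, and each library left out.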

Additional observations from a re-analysis of the deposited data

Results flagged for a closer look

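Of 90 sets of 6 libraries (9 receptors in 10 labelled groups), 6 held a library that stood apart from the rest of its group by Dixon's criterion, where chance gives about 1 in 20. Htr1b was at 0.712 rescaled FPKM in the library labelled cortex +/+ female 2 of the Δ12 line, with the other 5 at 1.61 to 2.07. It was at 5.86 in the library labelled striatum Δ12/+ male 3, with the others at 0.888 to 2.01. Htr2c was at 25.4 in that labelled striatum KO/+ male 2, with the others at 17.2 to 19.6. Htr3a was at 1.74 in that labelled cortex Δ12/+ female 1, with the others at 0.780 to 1.12. Htr4 was at 1.48 in that labelled cortex +/+ female 2 of the KO line and at 1.38 in that labelled striatum +/+ male 2 of the KO line, with the others at 0.819 to 1.05 and 0.784 to 0.996.

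The effect of Δ12/Δ12 against +/+ differed between the labelled sexes, by the interaction term in limma, for 2 of 9 receptors in labelled cortex, where 43.9% of all entries did, and for 3 of 9 in labelled striatum, where 55.8% did. Male minus female, the log2 difference of effects in labelled cortex was -3.46 for Htr1b (adjusted p 0.00011) and -2.02 for Htr6 (adjusted p 0.0053). In labelled striatum it was -2.91 for Htr1b (adjusted p 4.9e-06), 0.90 for Htr3a (adjusted p 0.0085) and -1.03 for Htr6 (adjusted p 0.011). All libraries labelled female Δ12/Δ12 were striatum-like and all labelled male were cortex-like, so sex as labelled and expression class cannot be told apart here. The difference of effects between the labelled tissues passed in limma for 0 of 9 receptors in the Δ12 line and 0 of 8 in the KO line. No entry at all passed, of 15173 for Δ12/+, 15694 for Δ12/Δ12 and 15917 for KO/+. Htr7 in KO/+ was the 1 receptor at an unadjusted limma p under 0.05 (p 0.046).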

How the results depend on the processing

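Of the values under all alternatives, 483 kept their direction, side of the threshold or size, 69 lost a call, 2 gained one, 8 moved by more than the spread between libraries and 4 changed sign. In labelled striatum Δ12/Δ12, where 4 receptors were called, there were 2 on the FPKM as deposited, 2 with no filter, 0 without the sex covariate and 0 with the class as a covariate. Over all entries, 4381 were called there, and 4336 on the FPKM as deposited. In labelled striatum KO/+, with 2 called of 1093 entries in all, there was 1 on the deposited FPKM, of 306 entries in all. The replicate block left 0 called in both, of 5 and 302 entries called in all. Replicate numbers were not taken as a pairing, since 5 of 48 same-numbered pairs of libraries had correlated deviations over 0.1 and 7 of 48 libraries correlated best with their own number. Cortex and striatum libraries of the same number deviated together, by a correlation over 0.1, in 4 of 15 pairs in each class. With 1 library left out at a time, the receptors called ranged from 0 to 1 in labelled cortex Δ12/Δ12 (12 to 3844 of all entries). They ranged from 0 to 4 in labelled striatum Δ12/Δ12 (5 to 6208) and 1 to 4 in labelled striatum KO/+ (560 to 1243). Between the lines they ranged from 5 to 6 in labelled cortex (10109 to 11284) and 5 to 7 in labelled striatum (12098 to 12523). In the other 3 they were 0 to 0, with 5 to 41 entries in labelled cortex Δ12/+, 1 to 19 in labelled cortex KO/+ and 1 to 2 in labelled striatum Δ12/+. The receptor called in labelled cortex Δ12/Δ12 was Htr6, without +/+ male 2.

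With Slc17a7 above 50 FPKM as the bound, 0 receptors had classes that did not overlap, as 2 libraries between the bounds then changed class. The share of all entries without overlap was not taken at this bound. On the deposited FPKM, the median of all entries moved by -0.31 (log2) between the classes, -0.15 in labelled cortex KO/+, -0.14 in labelled striatum Δ12/Δ12, and -0.21 and -0.28 between the lines. The class ratios then were -0.60 for Htr1a, 2.97 for Htr1b, -0.65 for Htr1f and -0.54 for Htr2a, and that of Htr7 turned to -0.21. Without a pseudocount they were -0.71 for Htr1a, 3.75 for Htr1b, -1.90 for Htr3a and 1.90 for Htr6. In cortex-like libraries, r turned to 0.016 for Htr2c and choroid plexus markers on linear values and, for Htr2a and striatal markers, to 0.011 with group means removed and 0.43 over means of same-numbered libraries (adjusted p 0.13). Where no cause is named it was not tested. The tables hold no counts, so what depth limits could be read from the intervals alone, and these were widest for Htr3a and Htr6.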
